A study of Mus musculus with 9 samples.

Results

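Ribosome-protected fragments of 10 genes, the 3 genes of the FMRP family and 7 genes whose products bind it or act beside it, were compared in mouse striatal cells with normal and expanded huntingtin. The members, taken by symbol from 36410 rows of gene counts, were Fmr1, Fxr1, Fxr2, Cyfip1, Cyfip2, Nufip1, Caprin1, G3bp1, G3bp2 and Ythdf2. All 10 were found and all 10 passed the filter on low counts. The 3 immortalized STHdh lines, derived from mouse embryonic striatum, were profiled by Ribo-seq, which sequences the stretch of mRNA shielded by each ribosome, with 3 libraries per line. The control line (STHdhQ7/Q7) carries Htt alleles with 7 glutamines, which the labels call knock-in, the HD-het line (STHdhQ7/Q111) 1 allele with 7 and 1 with 111, and the HD-homo line (STHdhQ111/Q111) alleles with 111 only. All lines are labelled as strain C57/BL6 and all received cycloheximide, which freezes ribosomes on the message, for 10 min. Each genotype is 1 cell line, so genotype and line cannot be told apart, and the 3 libraries of a line came from separate rounds of culture.

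FMRP, the product of Fmr1, is an RNA-binding protein that sits on translating ribosomes and represses many neuronal messages. Its loss causes fragile X syndrome. FXR1P and FXR2P share its KH and RGG-type RNA-binding regions and form complexes with it. CYFIP1 and CYFIP2 connect FMRP to the translation initiation machinery and are also subunits of the actin-regulating WAVE complex. NUFIP1 is an RNA-binding partner of FMRP in the nucleus and an assembly factor of box C/D small nucleolar ribonucleoproteins (snoRNPs). CAPRIN1 and the G3BP proteins nucleate stress granules, and YTHDF2 reads N6-methyladenosine (m6A) and marks messages for decay.

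The libraries held 22504543 to 41888701 counts. Values are given as CPM, the count divided by the TMM-scaled library total and multiplied by 1000000. No mRNA libraries were used here, so a footprint level cannot be split into message abundance and ribosomes per message. Of 12 markers of striatal projection neurons, 4 were at 0 in every library of each line and the summed level of all 12 stayed between 4.56 and 18.2 CPM. Summed fibroblast and mural cell markers (8 genes) ran from 6410 to 9173 CPM over control libraries and from 5717 to 7297 CPM over HD-homo. Over HD-het they ran from 25470 to 27765 CPM, led by Col1a1 at 16518 CPM. The sums of control and HD-homo hid opposite shifts of single genes. From control to HD-homo, Acta2 went from 4099 to 267 CPM, Col1a2 from 24.0 to 1027 CPM and Pdgfra from 3.81 to 155 CPM. Neural precursor markers (8 genes), led by Vim, summed to 9595 to 9860 CPM over control libraries and 8991 to 9819 CPM over HD-het. Over HD-homo, the lowest line, they summed to 6016 to 6547 CPM. Vim made up most of each sum and hid larger shifts of single genes. Between control and HD-homo, Nes fell from 400 to 7.01 CPM, Sox2 from 51.1 to 2.26 CPM and Pax6 from 17.3 to 0.0759 CPM. Dlx1 and Dlx2 went the other way, from 2.71 to 4.02 CPM and from 9.25 to 19.9 CPM. Nes was highest for HD-het, with a mean of 1086 CPM. Summed astrocyte markers (5 genes) were low but highest in HD-homo, at 11.7 to 14.0 CPM against 2.29 to 3.93 CPM in control. That difference lay in Slc1a3 (11.7 against 1.67 CPM), while Gfap was 0.95 against 1.15 CPM and Aqp4 was at 0 in each line. Microglia markers (5 genes), led by Tmem119, were highest in HD-het, at 18.6 to 26.8 CPM against 4.93 to 6.64 CPM in control. This difference lay in Tmem119 (21.2 against 5.43 CPM). Csf1r was 0.38 against 0.34 CPM, P2ry12 0.26 against 0.29 CPM and Aif1 0.02 against 0 CPM, while Cx3cr1 was at 0 in each line. The part of these line differences in the results that follow was not tested.

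Paralogs can exchange reads where their messages are identical, so their coding sequences were compared first. Each pair below shows 30 bases around its longest shared run, which stands in capitals, 5′ to 3′ on the coding strand, from RefSeq on GRCm38.p6.
Fmr1 (chrX:68712252-68712281, plus strand): atgcttctGAAACAGAATCTGAccacagag
Fxr1 (chr3:34061849-34061878, plus strand): acccctccGAAACAGAATCTGAgcgtaaag
Fxr1 (chr3:34041134-34046038, plus strand, across an intron): ttagtGAAGGAGATGAAGTAGAGGTatatt
Fxr2 (chr11:69640305-69641288, plus strand, across an intron): tcacaGAAGGAGATGAAGTAGAGGTctatt
Cyfip1 (chr7:55887850-55887879, plus strand): ccgCAGTACAACATCTGTGAGCAGATGatc
Cyfip2 (chr11:46270612-46270641, minus strand): cccCAGTACAACATCTGTGAGCAGATGgtt
G3bp1 (chr11:55485644-55485673, plus strand): ATGGTTATGGAGAAGCCtagtcccctgctg
G3bp2 (chr5:92073225-92073254, minus strand): ATGGTTATGGAGAAGCCcagtccgctgctt
The longest shared run was 14 bases for Fmr1 and Fxr1, 14 for Fmr1 and Fxr2, 20 for Fxr1 and Fxr2, 24 for Cyfip1 and Cyfip2, and 17 for G3bp1 and G3bp2, where it opens both coding sequences. No pair shared a single window of 28 nt, a length inside the 26 to 32 nt range excised from the gel. Windows were matched exactly. Near-identical stretches, such as the one around the CYFIP run, were not counted, and exchange of reads there was not tested. The proteins were nevertheless close: CYFIP1 and CYFIP2 were identical at 1094 of 1252 aligned residues (87.4%), and the other pairs at 62.9 to 69.2%.

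Sequence was repeated elsewhere in the genome for other reasons. Of the 1371 windows of 28 nt in the G3bp1 coding sequence, 888 (64.8%) also occurred at other places, 763 of them in the pseudogene Gm5913 on chromosome 8. The window shown next, from the first exon junction in the G3bp1 coding sequence, is printed because it occurs at 3 other places and a fragment from it could not be assigned to 1 gene.
G3bp1 (chr11:55485732-55487499, plus strand, across an intron): tgcacagattttatggaaagaactcttc
For Ythdf2, 645 of 1713 windows (37.7%) recurred in the X-linked pseudogenes Gm6823 and Gm8401, and for Fxr1 119 of 2007 (5.93%) recurred in Gm17795. Fmr1 had 6 such windows of 1818 (0.33%), and the remaining 6 members had none. How fragments with several matches were counted is not given in the sources used here, so the absolute levels of G3bp1 and Ythdf2 are the least certain.

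The genes lie on 8 chromosomes (GRCm38.p6, coding exons of the longest RefSeq protein): Fmr1 at chrX:68678536-68717963 with 17 exons, Fxr1 at chr3:34020058-34069980 and Fxr2 at chr11:69632971-69653297 with 17 each, Cyfip1 at chr7:55842022-55932633 and Cyfip2 at chr11:46193849-46312859 with 30 each, Nufip1 at chr14:76110891-76137379 with 10, Caprin1 at chr2:103762945-103797669 with 18, G3bp1 at chr11:55469657-55500888 and G3bp2 at chr5:92052145-92137725 with 11 each, and Ythdf2 at chr4:132184916-132212256 with 5. The coding sequences run from 465 codons for G3bp1 to 1253 for both CYFIP genes. Fxr1 overlaps Dnajc19 (4772 counts over the 9 libraries against 114073 for Fxr1), and Cyfip1 overlaps Nipa2.

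Fmr1 stood apart in the HD-homo line, where its footprints were 1.68-fold those of control. The control libraries read 100.2, 99.2 and 101.8 CPM for Fmr1, the HD-het libraries 95.1, 93.9 and 88.7 CPM, and the HD-homo libraries 152, 197 and 159 CPM. The HD-homo libraries lay above all others without overlap, with replicate 2 the highest. Means were 100.4 ± 1.32, 92.6 ± 3.40 and 169 ± 24.4 CPM (SD, n = 3). The log2 fold change of Fmr1 in HD-homo over control was 0.75 (SE 0.10, edgeR adjusted p = 8.26e-05), and over HD-het 0.87 (SE 0.10, adjusted p = 1.41e-05). Without HD-homo replicate 2 the first value was 0.63 (adjusted p = 5.73e-05). In HD-het against control Fmr1 differed by -0.12 with a 95% interval of -0.33 to 0.10 (adjusted p = 0.326). Fmr1 is X-linked, and the 429 tested genes of that chromosome had a median log2 fold change of 0.02 in HD-homo against control, with 103 higher and 94 lower. Their median was 0.19 in HD-het against control (176 higher, 72 lower) and -0.19 in HD-homo against HD-het (107 higher, 185 lower). The part of the chromosome in the Fmr1 values was not tested.

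Fxr1, the most abundant family member, fell in both mutant lines. It read 556, 518 and 494 CPM in the control libraries, 385, 388 and 357 CPM in those of HD-het, and 358, 409 and 408 CPM in those of HD-homo. Every control library exceeded every mutant library. Fxr1 was lower by 27.9% in HD-het (log2 fold change -0.47, SE 0.08, edgeR adjusted p = 5.52e-04) and by 25.0% in HD-homo (-0.41, SE 0.08, adjusted p = 0.00195), and both comparisons share the control libraries. Between the mutant lines Fxr1 differed by 0.06 (95% interval -0.13 to 0.24).

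Fxr2, the remaining paralog, showed no change past the threshold. Control libraries covered 101.6 to 108.6 CPM, HD-het libraries 101.8 to 112.8 CPM and HD-homo libraries 92.3 to 102.4 CPM. The 3 ranges overlapped, and the 95% intervals of the log2 fold changes were -0.13 to 0.21 in HD-het and -0.27 to 0.07 in HD-homo.

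Both CYFIP genes fell in HD-homo. Control libraries gave 199, 211 and 212 CPM for Cyfip1, HD-het libraries 207, 232 and 202 CPM, and HD-homo libraries 158, 133 and 131 CPM, with no HD-homo library reaching any other. The log2 fold change of Cyfip1 in HD-homo was -0.56 against control (SE 0.09, edgeR adjusted p = 4.99e-04) and -0.61 against HD-het (adjusted p = 1.45e-04). In HD-het it was 0.04 (95% interval -0.16 to 0.25, adjusted p = 0.702). Cyfip2 was scarce, with 5.48 ± 0.725 CPM for control, 5.36 ± 0.580 CPM for HD-het and 3.73 ± 0.124 CPM for HD-homo (SD, n = 3), and again all HD-homo libraries (3.59 to 3.84 CPM) lay under the lowest of the others (4.71 CPM). Its log2 fold change in HD-homo was -0.55 against control (SE 0.14, adjusted p = 0.00907) and -0.52 against HD-het (adjusted p = 0.00756). In HD-het it was -0.03 (adjusted p = 0.878). Its counts were 81 to 205 per library, so its intervals were the widest of the 10.

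Nufip1 was lowest in HD-het. Its control libraries read 54.4, 58.7 and 49.0 CPM, its HD-het libraries 41.1, 41.5 and 40.1 CPM, and its HD-homo libraries 64.9, 58.1 and 66.0 CPM. The HD-het libraries were tightly grouped under all others, while the ranges of control and HD-homo overlapped. Its log2 fold change in HD-het was -0.40 (SE 0.09, edgeR adjusted p = 0.00250), and HD-homo exceeded HD-het by 0.62 (SE 0.09, adjusted p = 8.97e-05). In HD-homo against control the value was 0.22 with adjusted p = 0.0636, which passed the threshold with total counts in place of TMM (0.0465), without control replicate 2 (0.0488) and without HD-homo replicate 2 (0.0281).

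G3bp1, which drives stress granule condensation, showed the largest shift of the members in HD-het. For control it read 462, 476 and 476 CPM, for HD-het 285, 284 and 307 CPM, and for HD-homo 517, 431 and 468 CPM. The HD-het libraries lay far under the others, and HD-homo surrounded control. In HD-het G3bp1 fell to 0.620 of control (log2 fold change -0.69, SE 0.08, edgeR adjusted p = 3.51e-05), higher in HD-homo than HD-het by 0.69 (adjusted p = 2.16e-05), and between HD-homo and control the value was 0.00 (95% interval -0.18 to 0.18). Its paralog G3bp2 stayed within 144 to 175 CPM in all 9 libraries and passed the threshold in no comparison (adjusted p from 0.295 to 0.808). Caprin1, which binds both G3BP proteins, read 573 to 695 CPM over the 9 libraries. It differed from control by 0.10 in HD-het (95% interval -0.05 to 0.25) and by -0.07 in HD-homo (-0.23 to 0.08). Caprin1 was lower in HD-homo than in HD-het by 0.17 on the log2 scale (adjusted p = 0.0457), a call lost in 13 of 17 alternative settings, where the adjusted p over all settings ran from 0.00441 to 0.321. The gene overlaps Nat10, which had 18031 counts against 167145 for Caprin1 over the 9 libraries, and the use of strand in counting is not given in the sources used here.

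Ythdf2 followed the order of G3bp1. For control it read 174.9, 171.9 and 166.5 CPM, for HD-het 135, 139 and 132 CPM, and for HD-homo 199.9, 194 and 171 CPM. HD-het lay under all other libraries, and HD-homo overlapped control. Its log2 fold change in HD-het was -0.34 (SE 0.08, edgeR adjusted p = 0.00336) and HD-homo exceeded HD-het by 0.48 (adjusted p = 2.53e-04). Against control, HD-homo differed by 0.14 (adjusted p = 0.174).

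**Figure D1:**
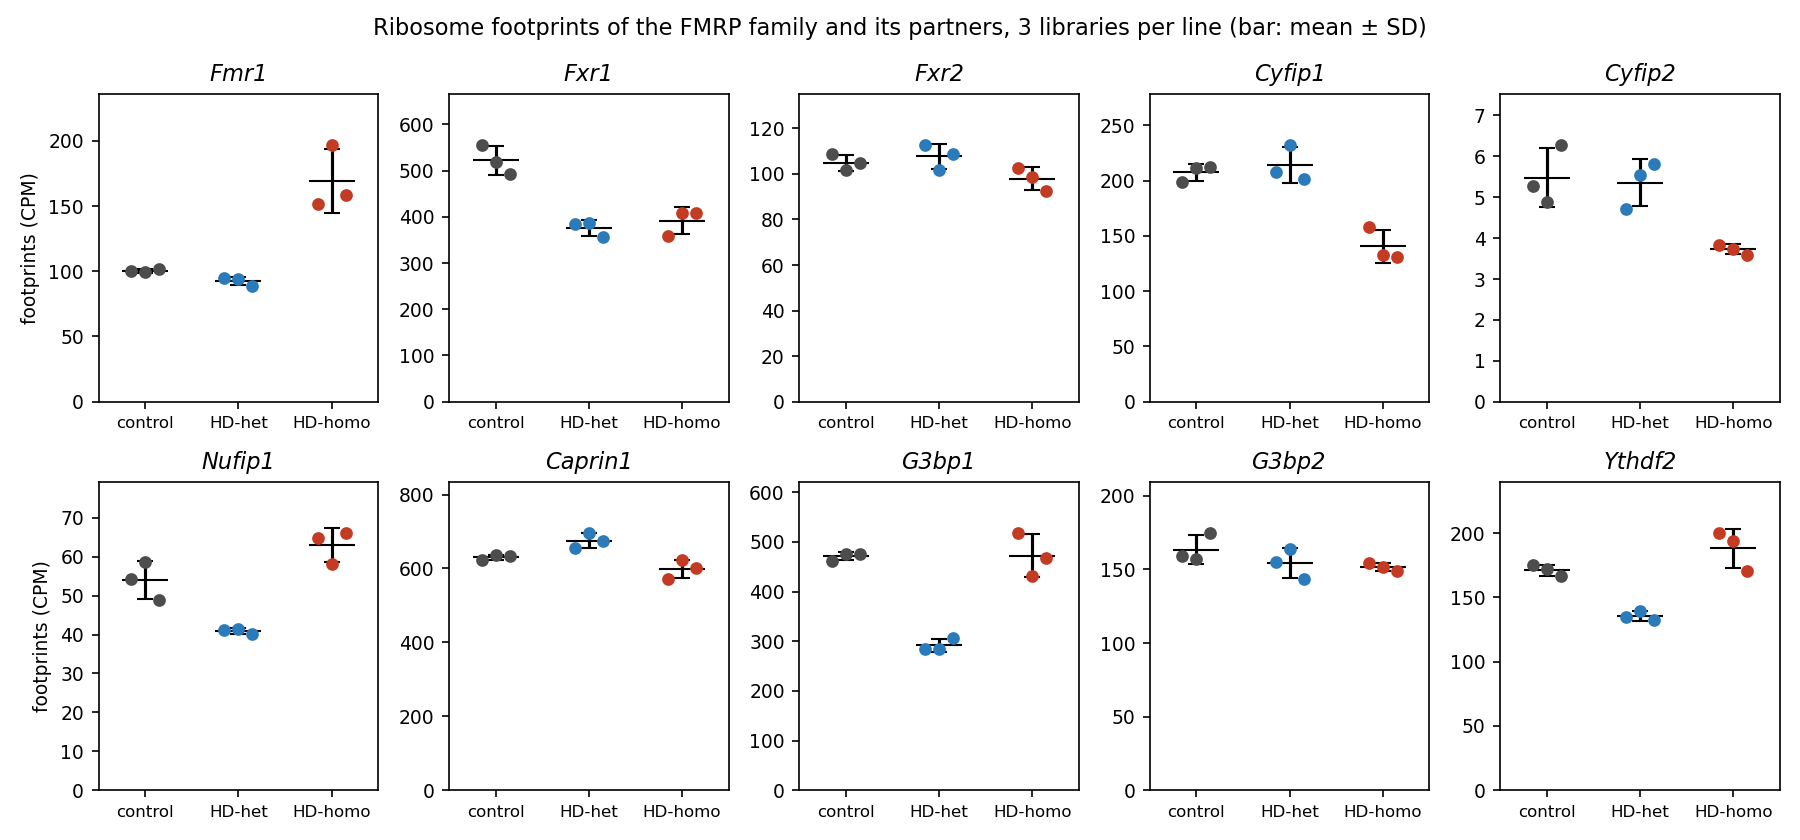
Footprints (CPM, linear axis from 0) of each of the 10 genes in the 9 libraries, grouped by line; points are libraries, bars the mean ± SD. The HD-homo libraries of Fmr1 lie above those of both other lines, the HD-het libraries of Nufip1, G3bp1 and Ythdf2 lie under those of both other lines, and the HD-homo libraries of Cyfip1 and Cyfip2 lie under theirs.

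Counted over the 10 members, 4 were called in HD-het against control, all lower (Fxr1, Nufip1, G3bp1 and Ythdf2). The 0 higher members of the edgeR test stayed 0 by DESeq2 and at an unadjusted p under 0.05. Over all 12678 genes tested, 60.1% were called in that comparison, 31.0% higher and 29.1% lower. In HD-homo against control 4 members were called, Fmr1 higher and Fxr1, Cyfip1 and Cyfip2 lower, where 45.7% of all genes were called (23.3% higher, 22.3% lower). Between the mutant lines 7 were called, 4 higher in HD-homo (Fmr1, Nufip1, G3bp1, Ythdf2) and 3 lower (Cyfip1, Cyfip2, Caprin1), where the background was 67.5% (34.6% higher, 32.8% lower). In the test of any difference among the 3 lines 7 of 10 members were called against 78.4% of all genes. As shares, 40% of the members were called against control in each mutant line and 70% between the mutant lines. No member changed by 2-fold, which 20.8% of all genes did in HD-het and 17.2% in HD-homo. The median absolute log2 fold change was 0.11 in HD-het and 0.18 in HD-homo for the members, and 0.46 and 0.32 for all genes. Between the mutant lines it was 0.50 for the members and 0.55 for all genes. Among the 9388 genes at least as abundant as the scarcest member it was 0.40 in HD-het, 0.26 in HD-homo and 0.48 between the mutant lines.

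**Figure D2:**
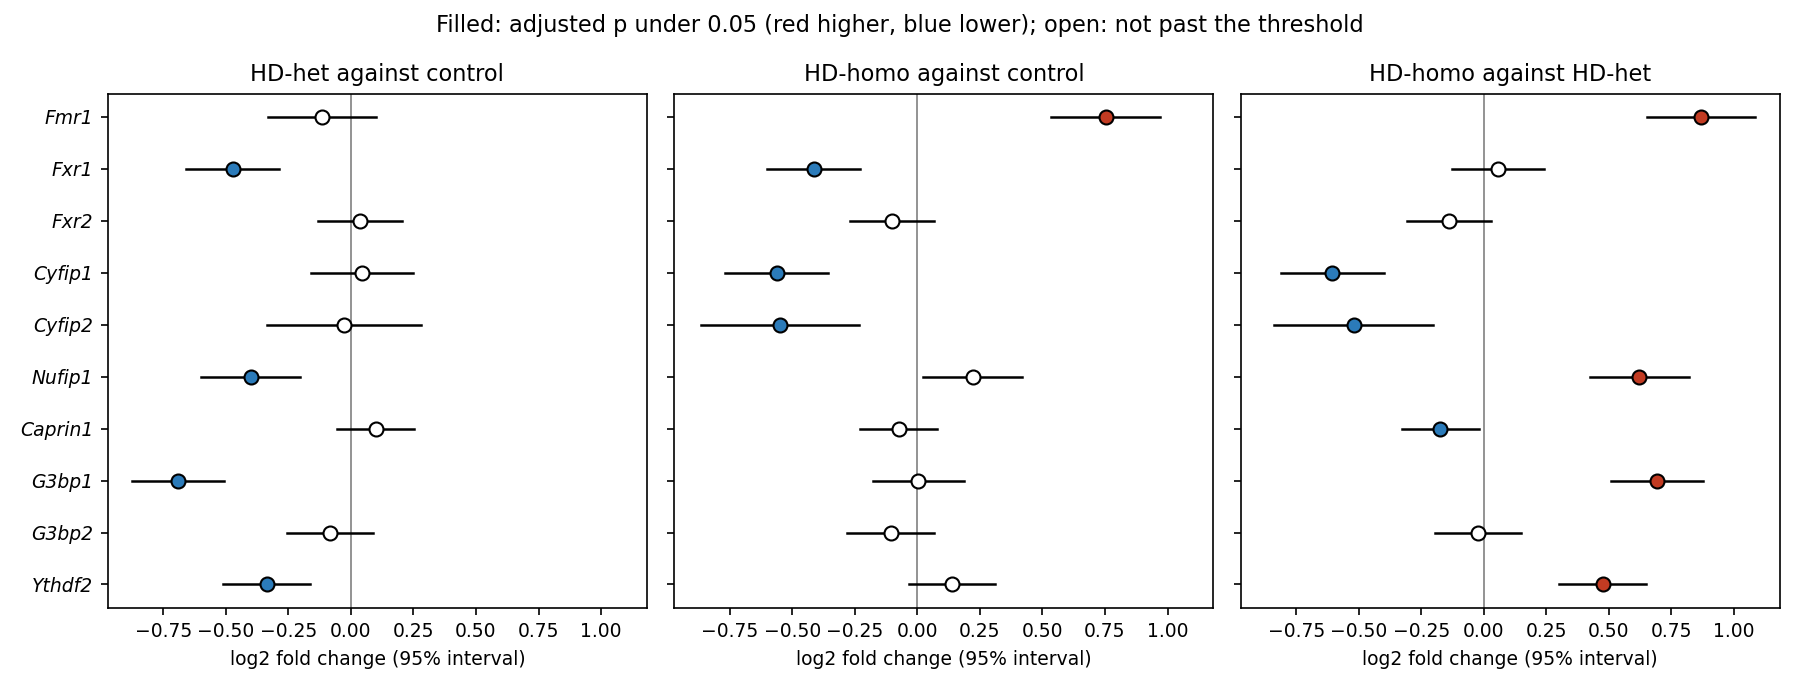
Fitted log2 fold changes of the 10 genes with their 95% intervals in the 3 comparisons; filled points passed an adjusted p of 0.05 and open points did not. Fxr1 lies left of 0 in both mutant lines, and Fmr1 lies right of 0 in the panels with HD-homo only.

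Because ratios inside a library need no library scaling, the paralogs were also compared per codon of coding sequence. Of the footprints per codon of the FMRP family, Fxr1 gave 70.7% ± 1.155 for control, 64.2% ± 1.06 for HD-het and 57.9% ± 2.17 for HD-homo (SD, n = 3). Fmr1 gave 15.0% ± 0.769, 17.4% ± 0.0405 and 27.5% ± 2.16, and Fxr2 the rest, at 14.3%, 18.5% and 14.6%. Per codon, Fxr1 exceeded Fmr1 4.72-fold (control), 3.69-fold (HD-het) and 2.12-fold (HD-homo). The exact permutation test over the 9 libraries gave p = 0.00357, the smallest it can give, and adjusted p = 0.00893 over the 5 ratios. The 3 lines did not overlap in this ratio: control libraries ran from 4.40 to 5.03, HD-het from 3.64 to 3.75 and HD-homo from 1.88 to 2.34. Fxr2 over Fmr1 was 0.952, 1.06 and 0.534 in the same order (exact permutation, adjusted p = 0.00893), HD-homo being the line set apart. Fxr2 over Fxr1 was 0.202, 0.288 and 0.252 (exact permutation, adjusted p = 0.0134), a call that was lost on leaving out any of 4 libraries.

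Summed over the FMRP family, footprints came to 1091 ± 48.8 CPM per 1000 codons for control, 867 ± 30.7 for HD-het and 999.6 ± 71.9 for HD-homo (SD, n = 3). Of the G3BP footprints per codon, G3bp2 gave 25.1% ± 0.998 for control, 33.8% ± 2.41 for HD-het and 23.7% ± 1.49 for HD-homo. The ratio of G3bp2 to G3bp1 was 0.335, 0.511 and 0.312 (exact permutation over 9 libraries, adjusted p = 0.0134), and rests on G3bp1 counts that pseudogenes could share. Cyfip2 over Cyfip1 was 0.0264, 0.0251 and 0.0267, so Cyfip2 was 2.45 to 2.60% of CYFIP footprints per codon in each line (exact permutation, adjusted p = 0.782), and the log2 ratio in HD-homo differed from control by 0.02, both genes being lower together.

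**Figure D3:**
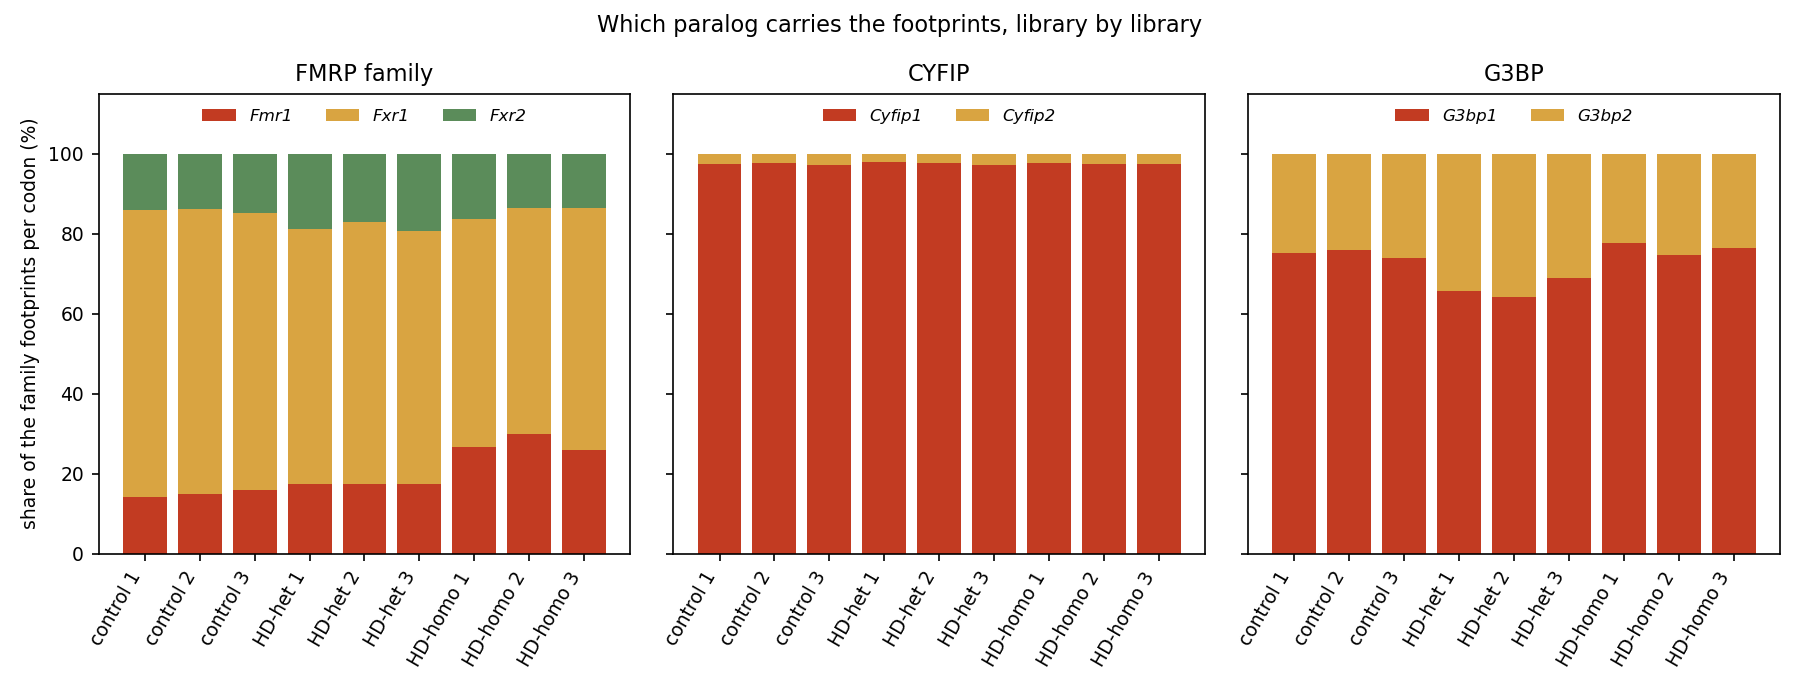
Share of the footprints per codon that each paralog contributes to its family (%), in each of the 9 libraries, for the FMRP family, CYFIP and G3BP. The Fmr1 share is 27.5% in HD-homo against 15.0% in control, G3bp2 reaches 33.8% in HD-het, and Cyfip2 is a thin band in all libraries.

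Ranked by footprints per codon, G3bp1, Caprin1 and Fxr1 were the top 3 and Cyfip2 the tenth in every line. G3bp1 stood at 1014 ± 17.1 CPM per 1000 codons in control and Caprin1 at 892 ± 9.91, and in HD-het Caprin1 (955 ± 27.6) came ahead of G3bp1 (628 ± 27.8). Fmr1 rose from the seventh place in control (163 ± 2.14) to the sixth in HD-homo (275 ± 39.8), where Cyfip1 fell from the sixth (166 ± 5.95) to the ninth (112.1 ± 11.9). Neighbours in this order whose libraries overlapped were Cyfip1 and Fmr1 in control, Cyfip1 with Fxr2 and Fxr2 with Fmr1 in HD-het, and Ythdf2 with G3bp2, G3bp2 with Fmr1 and Nufip1 with Cyfip1 in HD-homo. The libraries of all other neighbours lay apart.

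Genes around the members were taken from 6 lists, whose counts stand beside the shares of all tested genes given above (31.0% higher and 29.1% lower in HD-het, 23.3% and 22.3% in HD-homo). Of 22 partners in FMRP ribonucleoproteins, 5 were higher and 9 lower in HD-het, and 4 higher and 6 lower in HD-homo, together near the 60.1% and 45.7% called over all genes. Eif4e, which encodes the cap-binding protein bound by CYFIP1, was 390 CPM in control and 223 CPM in HD-het (log2 fold change -0.81, adjusted p = 8.58e-06), the largest fall by the naming rule, and Stau2, a transport factor that binds double-stranded RNA, rose from 8.16 to 12.97 CPM. In HD-homo the m6A reader Igf2bp1 rose from 64.2 to 97.2 CPM (0.60, adjusted p = 1.97e-04) and Dicer1, the microRNA-processing nuclease, fell from 32.0 to 20.6 CPM (-0.63, adjusted p = 1.66e-04). Nufip2, another FMRP-interacting protein, did not pass the threshold in any comparison (0.15 in HD-het and 0.19 in HD-homo).

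Of the WAVE complex, 9 of 11 genes were tested. In HD-het 4 were higher and 3 lower, and in HD-homo 1 was higher and 2 lower, beside 60.1% and 45.7% of all genes called in either direction. Nckap1, the scaffold subunit that pairs with CYFIP proteins, rose in both lines, to 192 CPM with HD-het (0.49, adjusted p = 5.99e-04) and 200.4 CPM with HD-homo (0.55, adjusted p = 3.70e-04) from 137 CPM for control, whereas Cyfip1 fell in HD-homo. Abi1 rose in HD-het from 120.0 to 189 CPM (0.66) and Wasf2 from 56.4 to 73.7 CPM (0.39, adjusted p = 0.0145). Wasf1, at 12.6 CPM for control, fell to 6.14 CPM (HD-het) and 8.83 CPM (HD-homo).

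Of 26 stress granule genes, 4 were higher and 12 lower in HD-het (median log2 fold change -0.17 against 0.02 for all genes), and 1 higher and 7 lower in HD-homo, where all genes were called lower at 29.1% and 22.3%. Usp10, which binds G3BP proteins, was lower in HD-het (-0.51, adjusted p = 0.00134) and was -0.09 in HD-homo (adjusted p = 0.486). Ubap2l, at 336 CPM for control, fell in both lines, to 254.8 CPM (HD-het) and 286 CPM (HD-homo). Larp4 fell in HD-het from 336 to 191 CPM (-0.82), Prrc2b rose there by 0.43, and Prrc2c fell in HD-homo (-0.54). Caprin2, a low-level paralog of Caprin1, stood at 3.42 CPM for control and rose to 5.20 CPM (HD-het) and 6.44 CPM (HD-homo). Of 18 m6A genes, 1 was higher and 7 lower in HD-het, and 3 were higher and 3 lower in HD-homo, beside 60.1% and 45.7% of all genes called in either direction. The readers Ythdf1 and Ythdf3 did not pass the threshold against control in either line. HD-homo exceeded HD-het by 0.47 for Ythdf1 (edgeR adjusted p = 0.00202) and by 0.48 for Ythdf2. For Ythdf3 the value was 0.26 (edgeR adjusted p = 0.0432), and its libraries overlapped between the mutant lines. Wtap, a subunit of the m6A writer complex, fell in HD-het (-0.57), Ythdc2 rose there (0.45), and in HD-homo the writer subunit Mettl14 fell (-0.39).

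The list of box C/D snoRNP proteins and assembly factors, the machinery that NUFIP1 serves, was one-sided in HD-het. In HD-het 9 of its 10 genes were lower and 0 higher, the exception being Pih1d1 (0.16, adjusted p = 0.136), and the median log2 fold change was -0.88, where 29.1% of all genes were lower and 31.0% higher (median 0.02). Snu13, the RNA-binding core protein that NUFIP1 contacts, had 149 ± 21.7 CPM for control, 47.2 ± 5.22 CPM for HD-het and 153 ± 15.0 CPM for HD-homo (SD, n = 3), a change of -1.66 in HD-het (SE 0.13, edgeR adjusted p = 1.32e-06). In HD-homo none of the 10 passed the threshold of the edgeR test against control (median -0.03), with 1 at an unadjusted p under 0.05 and 0 called by DESeq2. Against HD-het 9 were called higher in HD-homo and 0 lower, where 34.6% of all genes were higher and 32.8% lower. Of these 9, the Nop56 libraries overlapped between the mutant lines. Nufip1 itself stood at -0.40 in HD-het and 0.22 in HD-homo.

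A list of 44 messages known as FMRP targets had 33 tested genes, since 11, mostly synaptic genes such as Grin2a, Bsn and Shank1, fell under the filter. In HD-het 12 (36.4%) were higher and 5 (15.2%) lower (median 0.17), where 31.0% of all genes were higher and 29.1% lower (median 0.02). In HD-homo 6 (18.2%) were higher and 17 (51.5%) lower (median -0.35), where 23.3% of all genes were higher and 22.3% lower (median 0.02). Map1b, a microtubule-associated protein and a classic FMRP target, at 192 ± 2.24 CPM for control, fell to 61.6 ± 2.52 CPM (HD-het) and 17.6 ± 4.31 CPM (HD-homo, SD, n = 3), where its log2 fold change was -3.44 (SE 0.15, adjusted p = 1.19e-08). Ank2 rose in both lines, from 3.60 CPM to 17.6 and 10.7 CPM, and Arc, an immediate early gene of synapses, fell from 40.5 to 10.4 CPM in HD-het and rose to 97.2 CPM in HD-homo. The targets are long, with a median of 2368 codons against 470 for all genes tested that had a coding length. Of the 721 tested genes with at least 1500 codons, 39.5% were lower in HD-homo and 47.9% were higher in HD-het, against 21.5% and 30.2% of shorter genes. Among the targets of at least 1500 codons 15 of 22 were lower in HD-homo, and among the shorter ones 2 of 11. The part of coding length in the target counts was not tested.

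**Figure D4:**
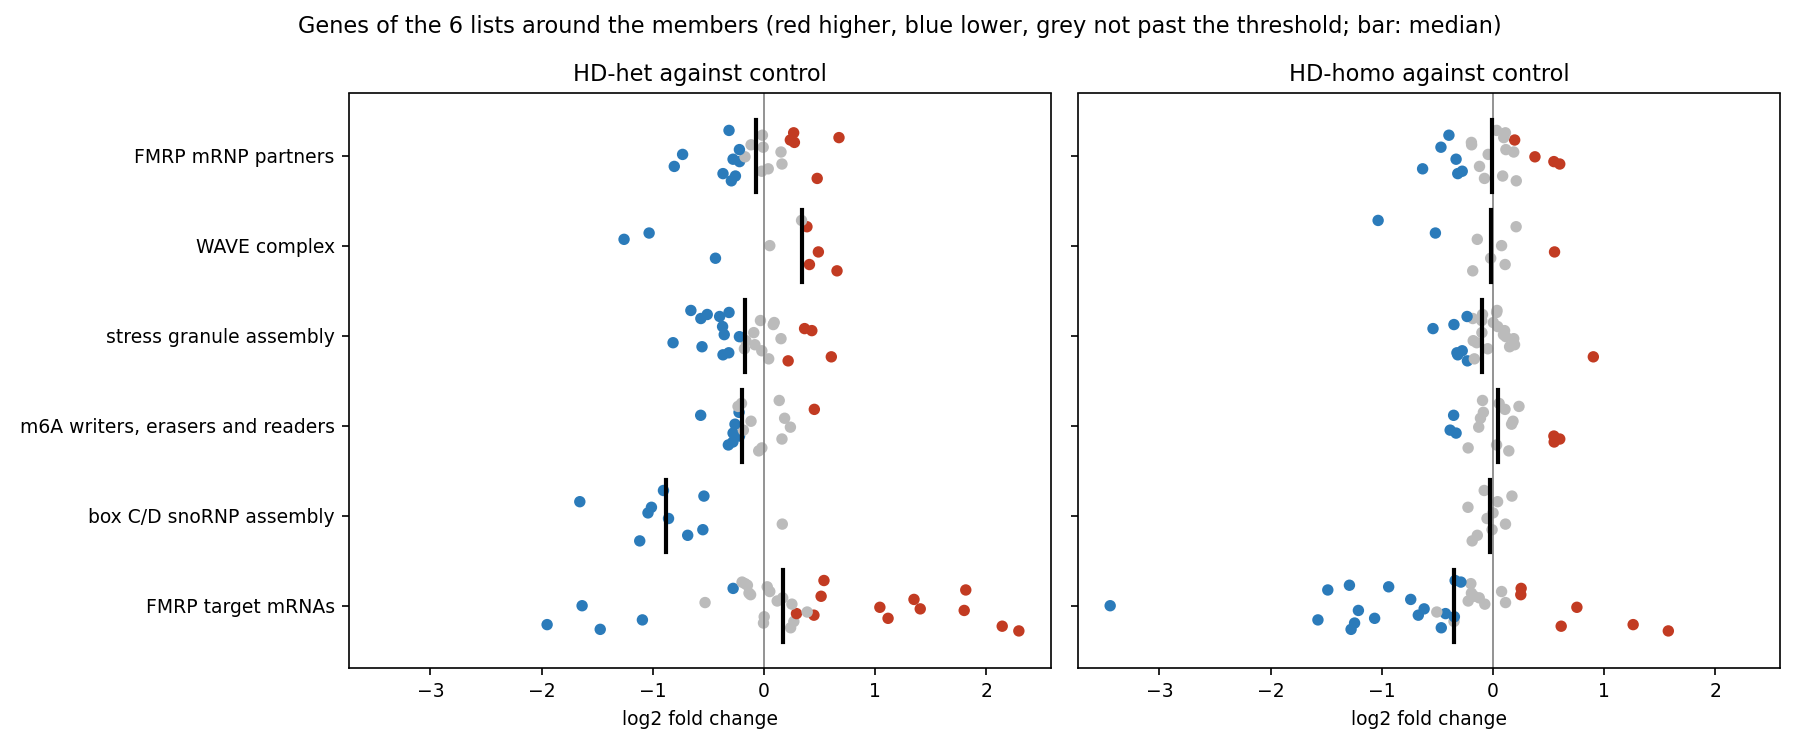
Fitted log2 fold changes of the genes of the 6 lists in HD-het (left) and HD-homo (right) against control; each point is a gene, coloured by its call, and the bar marks the list median. The snoRNP list has a median of -0.88 on the left and -0.03 on the right, and the FMRP targets of 0.17 and -0.35.

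Among 7724 genes with at least 10 CPM, those whose pattern over the 9 libraries came nearest to Fmr1 were Tnip1, Irak4 and Mdm1, with root mean square differences of 0.0462, 0.0730 and 0.0807 in centred log2 CPM. Tnip1, an inhibitor of NF-kappaB signalling, read 25.1 ± 0.659 CPM for control, 21.8 ± 0.921 for HD-het and 41.6 ± 6.65 for HD-homo (SD, n = 3). Irak4, a kinase of Toll-like receptor signalling, read 11.04 ± 0.829, 10.1 ± 0.670 and 18.1 ± 3.17 CPM. Of the other members, Nufip1 was nearest, at rank 795, and Cyfip1 farthest, at rank 6134, among the 8 members with at least 10 CPM besides Fmr1.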

How the data were processed

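Ribosome footprints of 3 STHdh lines, 3 libraries each, were used. The authors deposited raw counts of fragments per gene symbol in 36410 rows, of which 19597 were 0 in all libraries. The submitters' processing notes name cutadapt, Bowtie 1.0.1 and mouse build mm10; the counter, annotation, strand use and treatment of multiply mapped fragments are not given in the sources used here.

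In R 4.3.3, edgeR 4.0.16 (with limma 3.58.1) was fitted to these counts over all 9 libraries by quasi-likelihood, after filterByExpr by line and scaling with TMM factors, and its F test was adjusted by Benjamini-Hochberg over 12678 genes at 0.05. The scripts were tested on simulated data, where part of the smaller changes was not recovered, so a gene that missed the threshold is not shown to be unchanged. Paralog ratios (counts per codon, RefSeq GRCm38.p6 coding sequences, longest protein) were compared on the log2 scale by an exact permutation test over 1680 assignments. Its statistic was the F ratio among the 3 lines, so it tests no single pair of lines. Coding 28-nt windows were matched exactly, without mismatches, to the whole genome on both strands. No protein sequence is printed. A count of 0 allows up to 3 counts, or 0.0714 to 0.142 CPM by library, covering counting error only.

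The members, the lists, from general knowledge, and the tests were chosen with earlier results of these data known, and the split at 1500 codons after the values were seen. Of the 122 listed genes, 9 are in 2 or more lists and 13 were removed by the filter. Named genes were the 10 members, their paralogs and direct partners (Ythdf1, Ythdf3, Nufip2, Caprin2, Usp10, Ubap2l, Nckap1, Wasf2), in each list and mutant line the largest called rise and fall with at least 10 CPM and no overlap, and the 3 genes nearest to Fmr1. Other genes (Grin2a, Bsn, Shank1, Pih1d1) are named as exceptions. Alternatives were RLE factors, total counts, DESeq2 1.42.0, a table with no filter or with 10 or more counts per library, a fit of just the 6 libraries at hand, a block for replicate number, a threshold of 0.01, and omission of single libraries.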

Additional observations from a re-analysis of the deposited data

How the results depend on the processing

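Over 510 combinations of 30 member comparisons with 17 alternatives, 477 kept the direction and side of the threshold, 3 passed it newly (Nufip1 in HD-homo against control), 13 lost it (Caprin1 between the mutant lines) and 17 changed sign. The sign changes fell in 5 comparisons that passed the threshold in 0 settings. With total counts Fxr2 in HD-het was -0.013, Cyfip1 in HD-het -0.0059 and G3bp2 between the mutant lines 0.053. G3bp1 in HD-homo against control was -0.018 with no filter and -0.0054 with the 6 libraries alone, and Cyfip2 in HD-het was 0.0025 with 10 or more counts per library. With 1 library left out these ran from -0.0097 to 0.061 for Fxr2, -0.037 to 0.067 for Cyfip1, -0.071 to 0.023 for G3bp2, -0.068 to 0.066 for G3bp1 and -0.11 to 0.077 for Cyfip2. Members called numbered 4 in HD-het under all alternatives, 4 to 5 in HD-homo, 6 to 7 between the mutant lines, and 7 to 8 for any difference, the 8 by DESeq2. Of 109 tested genes over the 6 lists, 66 were called in HD-het, 45 in HD-homo and 78 between the mutant lines. Over all genes 60.1%, 45.7% and 67.5% were called. The list counts ranged over the alternatives from 48 to 71, 32 to 49 and 64 to 78, and the number tested varied with the filter. Same-numbered libraries correlated between -0.42 and 0.20 in their deviations from the line means, so the numbers were not taken to pair them. With the replicate block the Caprin1 difference had adjusted p = 0.0577, the ratio G3bp2 over G3bp1 (largest log2 difference between lines 0.71) had adjusted p = 0.0694, and both ratios to Fmr1 had 0.0463; the block changed no other member call. Fxr2 over Fxr1, whose largest log2 difference was 0.51, ran from 0.46 to 0.57 with a library left out and lost its call (adjusted p 0.0536 to 0.0625) without control replicates 1 or 2 or HD-het replicates 1 or 3. The cause was not tested. Counts of called genes over the whole table stayed within 1.5 times. Depth limits Cyfip2 most, and the number of libraries limits the ratio tests, whose smallest possible p was 0.00357.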
